A study of Mus musculus with 25 samples.

Results

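SRSF7 is a serine/arginine-rich protein that binds pre-mRNA and mRNA and takes part in splicing and in the later handling of transcripts. It contacts RNA through an RNA recognition motif and a CCHC zinc knuckle, and a domain rich in arginine and serine carries most of its protein contacts. Among the closely related SR proteins the zinc knuckle is the feature that sets SRSF7 apart, and it is known to add to the choice of RNA sequence made by the recognition motif. In iCLIP, UV light links a protein to the RNA it touches in living cells. The protein is precipitated, the bound RNA is copied, and the copy usually stops at the residue left by the protein, so that each cDNA marks the position of a crosslink to the nucleotide. Such a stop is called an event below.

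The nucleotides described here are positions where the zinc knuckle mutant (mutZn) had a peak and the unmutated GFP-tagged protein (WT) had none nearby. They were taken from the authors' summed peak list of mutZn as all nucleotides with a score of at least 3 and with no nucleotide of the authors' WT list within 30 nt on the same strand. The rule gave 78967 far nucleotides of 313264 mutZn peak nucleotides with that score, or 25.2%. The other 234297 lie within 30 nt of a WT peak and are called near nucleotides. The far nucleotides were thus selected on the peak scores and positions of both lists, and every value of mutZn set against WT at the far nucleotides is a description and carries no test.

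All libraries come from P19, a mouse embryonal carcinoma cell line, and positions are on mouse build mm9. The mutZn (2 libraries), D27aa (2 libraries) and WT (3 libraries) groups are UV iCLIP with an anti-EGFP antibody from cells carrying SRSF7mutZn-GFP, SRSF7D27aa-GFP and SRSF7-GFP, the last marked OE in the labels. RRM_OE, endo_OE and GFP_OE (2 libraries each) were made from SRSF7-GFP OE cells with an anti-SRSF7 antibody, and endo_WT (1 library) from cells of WT genotype with the same antibody. The piCLIP libraries come from monosomal (2 IP, 1 IgG) and polysomal (2 IP, 1 IgG) fractions of SRSF7-GFP OE cells. Controls without UV exist for mutZn, D27aa, WT and GFP_OE, and 1 library had no antibody (1 library each). The labels state neither promoter nor clone of the tagged lines, nor whether libraries of 1 group came from separate cultures, although the submitters' design text speaks of biological replicates. Where they did not, the spread given below is technical.

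Depth differed widely. The mutZn libraries hold 18219106 events, against 5273914 in the WT libraries, a ratio of 3.45. D27aa 1 and D27aa 2 hold 376870 and 388768 events, the anti-SRSF7 UV libraries 17763 to 471705, the piCLIP immunoprecipitates 18357 to 52553, the anti-GFP no-UV libraries 34947 to 89070 and the other controls 1153 to 11177. All comparisons of levels are therefore in CPM, events per 1000000 events of the library. RNA levels were not measured, so more crosslinking per RNA molecule and more RNA cannot be told apart. No mm9 genome or annotation was used here, and regions are named by coordinates only.

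The WT peak list is not simply the sum of the 3 WT libraries. Its header lists 4 input data sets, whereas those of mutZn and D27aa list 2 each. At 68.0% of its nucleotides none of the 3 WT libraries has an event, and its summed score is 4232166 against 1047880 events of the 3 libraries at the same nucleotides. Its score lies below the events of WT 2 at 230 nucleotides and below those of WT 3 at 2277 nucleotides, and never below those of WT 4. The mutZn score equals the sum of mutZn 3 and mutZn 4 at 100% of the mutZn nucleotides. The WT list thus holds events that the WT libraries do not, and its absence calls rest partly on data not analysed here.

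Most far nucleotides were low peaks. Their authors' score had a median of 3, a 90th percentile of 6, a 99th percentile of 14 and a highest value of 222, while near nucleotides had a median of 4, percentiles of 10 and 58 and a highest value of 454. The share of mutZn peak nucleotides that was far fell with the score, being 32.1% at a score of 3, 25.9% at 4, 18.1% at 5 to 9, 9.06% at 10 to 19 and 4.59% (469 of 10208) at 20 or more. Both mutZn libraries had an event at 57372 far nucleotides (72.7%), only mutZn 3 at 18454 (23.4%) and only mutZn 4, the shallower library, at 3141 (3.98%). Just inside the distance limit, the 1629 nucleotides with a score of 3 at 31 to 35 nt from a WT peak had a median of 25 mutZn and 4 WT events within 30 nt. Just outside it, the 1744 with the same score at 26 to 30 nt had 26 mutZn and 4 WT events.

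The WT libraries were searched directly for events at the far nucleotides. Most of them had WT events nearby. At least 1 WT event lay within 30 nt on the same strand of 69490 (88.0%), 5 or more of 30203 (38.2%), and 10 or more of 12739 (16.1%). No WT event lay within 30 nt of 9477 (12.0%), within 100 nt of 2740 (3.47%), and at the nucleotide itself of 59975 (75.9%). Among all mutZn peak nucleotides of that score 3.54% had no WT event within 30 nt, and among the near ones 0.694%. The rule chose nucleotides without WT peaks, so nothing is read from the higher share.

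The share without a WT event fell as the number of mutZn events in the window rose. A far nucleotide had a median of 22 mutZn events and 3 WT events within 30 nt, where equal CPM would give 6.37 WT events. With 3 to 5 mutZn events in the window 62.3% had no WT event, with 6 to 10 34.8%, with 11 to 20 14.6%, with 21 to 40 3.74%, with 41 to 80 0.497%, and with 81 or more 0.0986% (6 of 6086). The near nucleotides, in the same classes, ran 24.7%, 10.0%, 3.11%, 0.571%, 0.0679% and 0.00111%. They lay below the far ones in every class, a difference tied to the WT list that divides the 2 sets. The deepest WT library decided most of the answer, as WT 2 alone missed 83.5% of the far nucleotides, WT 3 alone 46.4% and WT 4 alone 17.2%, and without WT 4 the share with no WT event was 42.2%.

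**Figure D1:**
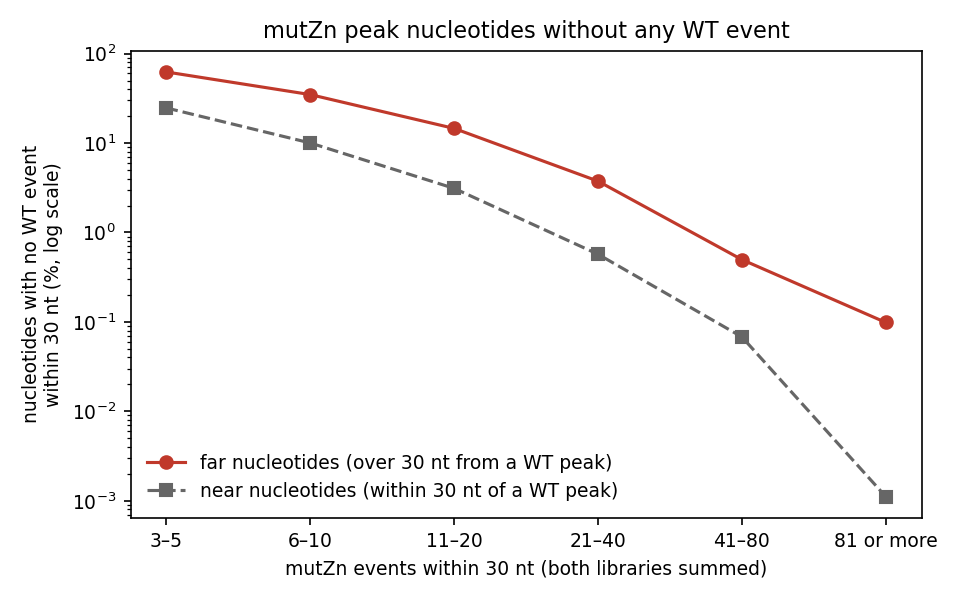
Share of mutZn peak nucleotides with no event of the 3 WT libraries within 30 nt (percent, log scale) by the number of mutZn events in the same window. Red circles are the far nucleotides, which run from 62.3% at 3 to 5 events to 0.0986% at 81 or more; grey squares are the near nucleotides, which lie below them in every class.

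Some far nucleotides without a WT event were not among the least covered. At equal CPM 3 WT events need 11 mutZn events, a number that 66085 far nucleotides reached. Of these, 4454 (6.74%) had no WT event within 30 nt, against 1.86% of all mutZn peak nucleotides with as many mutZn events and 0.455% of the near ones. Most of them, 3518, had only 11 to 20 mutZn events, a class whose far nucleotides had a mean of 2.35 WT events. Both mutZn libraries had an event at the nucleotide itself in 3120 (70.0%) of the 4454. No event of GFP_OE, endo_OE or endo_WT lay within 30 nt of 3521 (79.1%), and D27aa had an event there at 958 (21.5%).

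Distance to the nearest WT peak was mostly short. It was 31 to 40 nt for 5555 far nucleotides, 41 to 100 nt for 17932, 101 to 1000 nt for 40204 (50.9%), 1001 to 10000 nt for 11808, 10001 to 100000 nt for 2910 and more than 100000 nt for 558. Along these classes the share without a WT event ran 5.33%, 6.94%, 10.2%, 20.6%, 38.0% and 54.7%, and the median number of mutZn events ran 30, 29, 22, 15, 10 and 6. The ratio of mutZn to WT CPM within 30 nt, summed over nucleotides, ran 1.46, 1.43, 1.64, 2.09, 2.75 and 3.78. The far nucleotides most remote from WT peaks were thus the least covered and had the largest ratios, both quantities being tied to the WT data that set the distance.

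Events within 30 nt of the far nucleotides were then counted in every library, each nucleotide of the joined windows once. The windows cover 2993146 nt on 1 strand, of which the far nucleotides are 2.64%. mutZn 3 and mutZn 4 had 55825 and 55023 CPM there, D27aa 1 and D27aa 2 had 33022 and 33508 CPM, and WT 2, WT 3 and WT 4 had 31234, 35637 and 32022 CPM. The mutZn mean of 55424 ± 567 CPM (SD, n = 2) was 1.68 times the WT mean of 32964 ± 2348 CPM (SD, n = 3). The 2 groups did not overlap, at nucleotides chosen for a peak in mutZn and none in WT. Within the 1 sequencing run, read from the file headers, that holds mutZn 4, WT 3 and WT 4 the ratio was 1.63.

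The rule did not use the D27aa libraries. Their mean of 33265 ± 344 CPM (SD, n = 2) lay inside the range of the WT libraries and gave a ratio of 1.01 to WT, 1.06 in the run shared by D27aa 1 and WT 2, and 0.991 in the run shared by D27aa 2, WT 3 and WT 4. The mean of mutZn was 1.67 times that of D27aa.

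The libraries made with the anti-SRSF7 antibody lay lower. GFP_OE 3 and GFP_OE 4 had 24353 and 30371 CPM, and the 2 did not reach the D27aa libraries. D27aa averaged 33265 CPM and GFP_OE 27362 ± 4255 CPM (SD, n = 2), a ratio of 1.22 and a log2 difference of 0.29 (exact permutation test, two-sided, p = 0.333, the smallest that 2 libraries against 2 can give). Protein and antibody differ together in this comparison. GFP_OE also comes from SRSF7-GFP OE cells, as does WT, which the rule used. RRM_OE 3 and RRM_OE 4 had 23532 and 25243 CPM, endo_OE 4 and endo_OE 5 had 25600 and 28073 CPM, and endo_WT had 31102 CPM.

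Libraries from ribosome fractions held fewer events at the far nucleotides than the UV iCLIP libraries with the same antibody. The monosomal immunoprecipitates had 26240 and 19022 CPM, against 10408 CPM (12 events, 95% exact Poisson interval 5378 to 18180) in their IgG library. The polysomal ones had 20652 and 16070 CPM, against 6889 CPM (77 events, 5437 to 8610) in theirs. The labels list anti-EGFP for the IgG libraries too.

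The anti-GFP no-UV controls were above the UV D27aa and WT libraries at these nucleotides. mutZn no-UV had 45959 CPM (3065 events, 95% exact Poisson interval 44346 to 47615), D27aa no-UV 40776 CPM (1425 events, 38686 to 42950) and WT no-UV 37600 CPM (3349 events, 36337 to 38895). The mutZn no-UV library was 1.22 times the WT no-UV library, a comparison of 1 library with 1 that has no replicate check. GFP_OE no-UV had 20123 CPM (36 events, 14094 to 27859) and the library without antibody 22727 CPM (70 events, 17717 to 28714.5). Both values lay below both GFP_OE libraries, but both intervals include GFP_OE 3 at 24353 CPM. The part of the no-UV signal in the UV values was not tested.

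**Figure D2:**
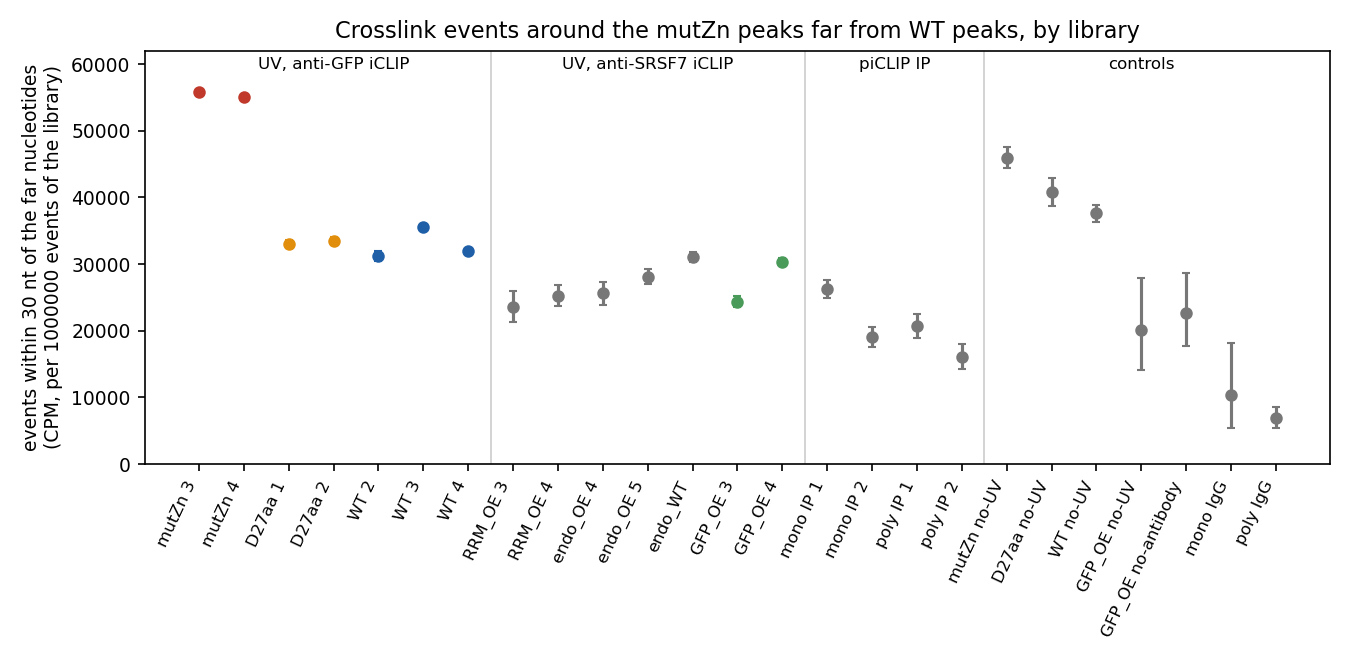
Events within 30 nt of the far nucleotides as CPM, per 1000000 events of the library, in each of the 25 libraries, with 95% exact Poisson intervals that cover counting error only. The 2 mutZn libraries lie at 55825 and 55023 CPM, the D27aa and WT libraries between 31234 and 35637 CPM, and mutZn no-UV at 45959 CPM.

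The same counts around near nucleotides went the other way. mutZn averaged 160382 ± 1280 CPM (SD, n = 2), D27aa 172912 ± 3199 CPM (SD, n = 2) and WT 173417 ± 4510 CPM (SD, n = 3). The mirror set of 70566 WT peak nucleotides of the same score and more than 30 nt from any mutZn peak had 19928 CPM in mutZn, 35604 CPM in D27aa and 37797 CPM in WT. The near set was chosen for a WT peak nearby and the mirror set for a WT peak without a mutZn peak. The order of mutZn and WT in both is thus tied to the choice. D27aa, which the choice did not use, lay near WT in both sets.

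Within the windows the events of other libraries were concentrated on the far nucleotides themselves. The far nucleotides are 2.64% of the window length and held 14.5% and 14.3% of the window's events in D27aa, 14.6%, 17.5% and 17.3% in WT, and 15.9% and 17.1% in GFP_OE. The value in mutZn, 32.4% and 32.3%, follows from the choice. Without UV the shares were 12.4% in mutZn, 11.8% in D27aa, 13.2% in WT and 13.9% in GFP_OE. They were 14.3% without antibody and 16.7% and 18.2% in the monosomal and polysomal IgG libraries. The last 3 and GFP_OE no-UV had only 12 to 77 events in the windows. The concentration was thus not particular to the UV immunoprecipitates. Near nucleotides, 5.67% of their windows, held 45.3% and 46.2% in D27aa.

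This was followed over 28656 isolated far nucleotides (36.3%) with no other within 100 nt. Events at the nucleotide, relative to the mean at 11 to 30 nt on either side, were 28.1-fold in mutZn, 5.80-fold in D27aa, 6.91-fold in WT and 6.47-fold in GFP_OE. The single libraries were both at 5.80 in D27aa, and ran from 5.94 to 7.76 in WT and from 6.33 to 6.63 in GFP_OE. Each of these groups of libraries therefore had its local maximum of events at the nucleotides that the mutZn list marks, with the level in WT at 1011 CPM and in D27aa at 889 CPM against 5538 CPM in mutZn. The mutZn profile stepped down between 15 nt (260 CPM upstream, 251 CPM downstream) and 16 nt (182 CPM upstream, 187 CPM downstream), and 15 nt is the neighbourhood used in the authors' peak calling.

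The no-UV libraries also had more events at the nucleotide than at 11 to 30 nt, 4.46-fold in mutZn no-UV (52 events at the nucleotide), 3.18-fold in D27aa no-UV (19 events) and 3.86-fold in WT no-UV (56 events). Their highest single positions, 4 nt downstream in mutZn no-UV (68 events), 3 nt downstream in D27aa no-UV (31 events) and 1 nt upstream in WT no-UV (66 events), have exact Poisson intervals that overlap those at the nucleotide. That overlap at single positions does not settle whether the maximum is shifted, which was not tested. At 1 to 5 nt mutZn no-UV had 705 to 1020 CPM at each position downstream and 285 to 510 CPM upstream. WT no-UV had more upstream at 1 to 3 nt (741, 561 and 359 CPM) than downstream (472, 314 and 269 CPM).

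**Figure D3:**
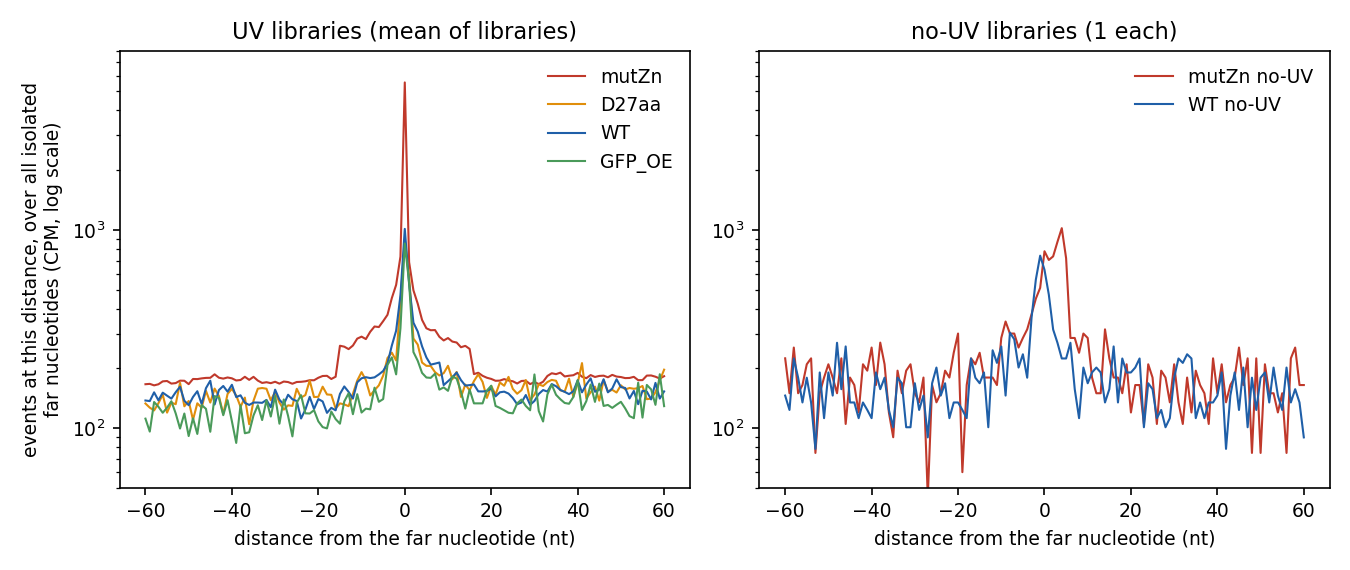
Events by distance from 28656 isolated far nucleotides (nt, negative upstream on the transcribed strand), summed over nucleotides and given as CPM on a log scale. Left, means of the mutZn, D27aa, WT and GFP_OE libraries, all with their maximum at 0 nt (5538 CPM in mutZn, 889 in D27aa, 1011 in WT). Right, the no-UV libraries of mutZn and WT, with 52 and 56 events at 0 nt. Their highest positions lie beside 0 nt, with exact Poisson intervals that overlap those at 0 nt.

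The far nucleotides were rarely near peaks of the authors' other lists. A D27aa peak nucleotide lay within 30 nt of 1210 (1.53%), where the share over all mutZn peak nucleotides of that score was 14.5% and over the near ones 18.9%. At the nucleotide itself there was a D27aa peak for 236 (0.299%), against 3.33% of all. A D27aa event, rather than a peak, lay within 30 nt of 52.0% of those 31 to 40 nt from a WT peak and of 10.4% of those more than 100000 nt away. Scores moved with this too, as 38.8% of the 469 far nucleotides with a score of 20 or more had a D27aa peak within 30 nt, against 0.865% of those with a score of 3.

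Other peak lists held still fewer. A piCLIP peak lay within 30 nt of 415 (0.526%), against 5.06% of all mutZn peak nucleotides. Peaks of the mutZn no-UV library lay within 30 nt of 138 (0.175%, against 2.77% of all), of the D27aa no-UV library of 31 (0.0393%, against 1.51%) and of the WT no-UV library of 39 (0.0494%, against 3.44%). The IgG lists touched 0 (monosomal, against 0.00287% of all) and 3 (polysomal, 0.0038%, against 0.0428%). The depth of these lists limits what they can show, and the far nucleotides, being lower peaks than the near ones, start from fewer events.

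Far nucleotides were mostly scattered. Joined at gaps of at most 30 nt on 1 strand they formed 47075 clusters, of which 33222 (70.6%) are single nucleotides and hold 42.1% of all. Clusters of 5 or more number 2046 and hold 21.2%, with a median span of 24 nt and a longest span over all clusters of 286 nt. The 79 clusters of 20 or more hold 2486 nucleotides (3.15%), and the largest holds 105. The near nucleotides were denser, with 45.1% single clusters, 66.2% of nucleotides in clusters of 5 or more and a largest cluster of 1589.

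Clusters with no WT event were small. There were 8219 of them (17.5%), of which 91.4% are single nucleotides and the largest has 7, and 3318 of them had at least 11 mutZn events. Of the 2046 clusters of 5 or more nucleotides 5 had no WT event, and of the 79 clusters of 20 or more none did, the lowest count being 2 WT events.

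Clusters differed widely in how far mutZn exceeded WT. In 5758 clusters with at least 35 mutZn events, for which equal CPM gives 10 WT events, the ratio of pooled CPM had a median of 1.74 and quartiles of 1.22 and 2.66, and it was above 1 in 5010 (87.0%). The ratio was under 1 in 748 clusters, 1 to 2 in 2654, 2 to 4 in 1669 and 4 or more in 687, of which 39 had no WT event. These classes were made from the mutZn and WT values, so only the other libraries add to them.

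The other libraries were read in these classes. Over the 687 clusters with a ratio of 4 or more, D27aa 1 and D27aa 2 had 998 and 1044 CPM, mutZn 3 and mutZn 4 had 2269 and 2184 CPM, and WT 2, WT 3 and WT 4 had 289, 386 and 364 CPM. The D27aa libraries lay above both GFP_OE libraries, which had 449 and 719 CPM, with a ratio of means of 1.75. Between the mutZn and WT values lay also endo_OE (507 and 753 CPM) and endo_WT (799 CPM), a place that the choice of these clusters favours for any other library. Without UV the class had 1664 CPM in mutZn, 1230 CPM in D27aa and 1347 CPM in WT, each above both D27aa UV libraries. Over the 1669 clusters with a ratio of 2 to 4 D27aa averaged 3114 ± 38.9 CPM (SD, n = 2) and GFP_OE 2102 ± 364 CPM (SD, n = 2), a ratio of 1.48, and over the 2654 with a ratio of 1 to 2 it was 1.27. Over the 748 clusters with a ratio under 1 D27aa averaged 2624 ± 214 CPM and GFP_OE 2789 ± 331 CPM (SD, n = 2 each), a ratio of 0.941, and the libraries of the 2 groups overlapped. GFP_OE was made from SRSF7-GFP OE cells, as was WT, so the ratio of D27aa to GFP_OE is not fully separate from the choice of classes. No test was made within these classes.

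The no-UV libraries moved partly with the same classes. The ratio of mutZn no-UV to WT no-UV CPM was 0.789 over the clusters with a ratio under 1, 1.11 over those of 1 to 2, 1.45 over those of 2 to 4 and 1.24 over those of 4 or more. In the last class the 2 libraries had 111 and 120 events. The part of uncrosslinked RNA in the UV ratios was not tested.

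Of the 8 far clusters with the largest summed score, 7 had a pooled ratio of mutZn to WT under 2. At chr19:5796278-5796409 on the minus strand, 105 far nucleotides with a summed score of 3838 had 3645 and 2006 events in mutZn, 116 and 113 in D27aa, and 67, 272 and 866 in WT. That is 311 ± 1.62 CPM in mutZn, 299 ± 12.1 CPM in D27aa and 256 ± 42.2 CPM in WT (SD, n = 2, 2 and 3), and the nearest WT peak lies 41 nt away. WT 2, the shallowest, was the highest WT library there and still below both mutZn libraries, while 1 D27aa library lay inside the WT range. Without UV the cluster had 420 CPM in mutZn (28 events), 343 CPM in D27aa (12) and 225 CPM in WT (20).

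Another 3 of the 8 clusters with the largest summed score belong to the same stretch of the minus strand of chromosome 19. The cluster at chr19:5796485-5796538 (54 far nucleotides) had 225 ± 16.5 CPM in mutZn, 277 ± 43.0 CPM in D27aa and 144 ± 16.5 CPM in WT. At chr19:5799092-5799141 (50) the values were 174 ± 2.22, 119 ± 21.4 and 126 ± 5.80 CPM in mutZn, D27aa and WT. At chr19:5798471-5798495 (21), 130 nt from the nearest WT peak, they were 111 ± 1.47, 82.2 ± 7.43 and 47.6 ± 22.6 CPM. Among the UV mutZn, D27aa and WT groups, the highest mean thus stood in D27aa in the first of these and in mutZn in the others. Without UV, mutZn, D27aa and WT had 225, 286 and 202 CPM at the first (15, 10 and 18 events). They had 165, 114 and 213 CPM at the second (11, 4 and 19 events). At the last they had 105, 114 and 56.1 CPM (7, 4 and 5 events). These no-UV levels were thus of the size of the UV ones, on few events.

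In 3 of the others the mutZn and WT libraries overlapped. At chr16:11144199-11144214 on the plus strand, which holds the highest score of 222, mutZn had 66.8 ± 7.06 CPM, D27aa 119 ± 34.0 CPM and WT 79.6 ± 22.0 CPM, while GFP_OE had 312 ± 107 CPM. On the mitochondrial chromosome, chrM:508-552 on the plus strand had 145 ± 20.05 CPM in mutZn, 115 ± 15.9 CPM in D27aa and 152 ± 57.9 CPM in WT. At chr17:39982242-39982348 on the plus strand, 98.9 ± 6.03 CPM in mutZn stood beside 402 ± 16.2 CPM in D27aa, 102 ± 56.2 CPM in WT and 627 ± 418 CPM in GFP_OE. All 3 lie 31 nt from a WT peak, the first distance that the rule admits. Their pooled ratios of mutZn to WT were 0.840, 0.803 and 1.38 in the order given, and in the third the WT mean rests on WT 2, which had 37 events, against 85 in WT 3 and 250 in WT 4, both far deeper.

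The exception was chr6:122290248-122290442 on the minus strand. Its 93 far nucleotides had 647 and 313 events in mutZn, 10 and 3 in D27aa, and 0, 10 and 39 in WT. In CPM these are 51.8 ± 4.44 in mutZn, 17.1 ± 13.3 in D27aa and 6.32 ± 5.49 in WT, and the pooled ratio of mutZn to WT is 5.67. GFP_OE had 11.1 ± 6.65 CPM. The lower mutZn library was above every D27aa and WT library, although WT 2 at 0 events allows up to 3. mutZn no-UV had 3 events (45.0 CPM), WT no-UV 2 (22.5 CPM) and D27aa no-UV 0.

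A further 3 clusters stood out by size alone. At chr17:23952691-23952819 on the plus strand, 81 far nucleotides, 187 nt from the nearest WT peak, had 41.4 ± 5.80 CPM in mutZn, 19.6 ± 2.28 CPM in D27aa and 26.1 ± 1.32 CPM in WT. At chr13:21871908-21871993 on the minus strand, 60 had 38.3 ± 5.44 CPM in mutZn, 15.7 ± 4.04 CPM in D27aa and 31.1 ± 3.78 CPM in WT. At chr13:23713870-23713951 on the minus strand, 55 had 37.8 ± 7.47 CPM in mutZn, 18.2 ± 6.99 CPM in D27aa and 24.2 ± 17.1 CPM in WT, and WT no-UV had 13 events, or 146 CPM. D27aa had the lowest mean of the 3 groups in each.

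The highest-scoring clusters without any WT event are thinly covered. The floor of 3 events over the summed WT libraries is 0.569 CPM. That floor and the absence of WT events rest on the 3 WT libraries only, not on the further data in the WT list. Each fold below sets the pooled mutZn CPM as counted against that floor, so "at least" covers counting error in WT only and not in mutZn. The clusters were chosen for high mutZn scores and no WT event, so the folds follow from the choice and are descriptions. At chr15:36701686-36701700 on the minus strand, 28 and 25 mutZn events against 0 in WT put mutZn at least 5.11-fold higher, and at chr15:66047089-66047102 on the minus strand 31 and 20 events put it at least 4.92-fold higher. At chr4:24515376-24515388 on the plus strand 27 and 18 events gave at least 4.34-fold, at chr2:168574281-168574288 on the minus strand 26 and 14 events at least 3.86-fold, and at chr5:67525606-67525607 on the minus strand 29 and 9 events at least 3.67-fold.

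The sixth is a single nucleotide, chr3:124921942 on the minus strand, with a score of 22, 16 and 7 mutZn events, at least 2.22-fold, and 677924 nt from the nearest WT peak. Of the libraries that the rule did not use, D27aa 1 had 1 event at the chromosome 2 and 1 at the chromosome 4 cluster, D27aa no-UV 1 at the chromosome 2 cluster, WT no-UV 1 at the chromosome 5 cluster, and poly IP 2 had 1 at the chromosome 3 nucleotide.

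Over bins of 50000 nt on 1 strand the far nucleotides occupied 11725 of the 15854 bins that hold any mutZn peak nucleotide of that score, with a median of 3 in a bin. The 6 fullest bins held 1880 (2.38%) and the 100 fullest 10873 (13.8%). The plus strand held 49.8% of the far nucleotides and 49.1% of all mutZn peak nucleotides.

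All events in the 6 fullest bins, whether at a far nucleotide or not, divide the bins into 2 kinds. In 3 of them the whole bin was higher in mutZn. In chr6:122250001-122300000 on the minus strand (439 far nucleotides), mutZn 3 and mutZn 4 had 1281 and 1238 CPM, D27aa 1 and D27aa 2 had 918 and 970 CPM, and WT 2, WT 3 and WT 4 had 437, 476 and 527 CPM. The groups did not overlap, and D27aa lay between the others. GFP_OE had 441 and 418 CPM, and endo_WT, whose label names no tagged protein, had 1102 CPM.

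On the plus strand of chromosome 12, 2 bins near each other had the same order. In chr12:110800001-110850000 (335) mutZn had 1411 and 1404 CPM, D27aa 743 and 728 CPM, and WT 81.2, 488 and 469 CPM. In chr12:110950001-111000000 (247) mutZn had 1065 and 1023 CPM, D27aa 462 and 602 CPM, and WT 104, 298 and 330 CPM. WT 2 was low in both, at 18 events in the first bin, and the other WT libraries were still below every mutZn and D27aa library. In the first bin endo_WT had 652 CPM, below both D27aa libraries. In the second it had 908 CPM, above both D27aa libraries and below both mutZn libraries. GFP_OE had 323 and 371 CPM in the first bin and 371 and 379 CPM in the second. Without UV, the first bin had 1005 CPM in mutZn (67 events), 830 CPM in D27aa (29) and 921 CPM in WT (82). The second had 660, 801 and 427 CPM in mutZn, D27aa and WT (44, 28 and 38 events). The chromosome 6 bin had 960, 744 and 550 CPM (64, 26 and 49 events). By value the no-UV libraries had the order of the UV groups in the chromosome 6 bin and another in each chromosome 12 bin. With 26 to 82 events in 1 library each, no difference in order is read from this, and none was tested.

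In the other 3 bins mutZn was closer to WT. In chr17:23950001-24000000 on the plus strand (313) mutZn had 1588 and 1535 CPM, D27aa 1459 and 1271 CPM, and WT 1497, 1013 and 1094 CPM. In chr7:67100001-67150000 on the minus strand (299) mutZn averaged 3312 ± 42.8 CPM, D27aa 2470 ± 10.4 CPM and WT 3065 ± 154 CPM. In chr19:5750001-5800000 on the minus strand (247, summed score 9460) mutZn averaged 7793 ± 68.1 CPM, D27aa 8703 ± 89.5 CPM and WT 7667 ± 1145 CPM. The mutZn libraries lay above all WT libraries in the first and second of these and inside the WT range in the third. The third has the highest level of the 6 and a ratio of mutZn to WT of 1.02, against 1.30 and 1.08 in the others.

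**Figure D4:**
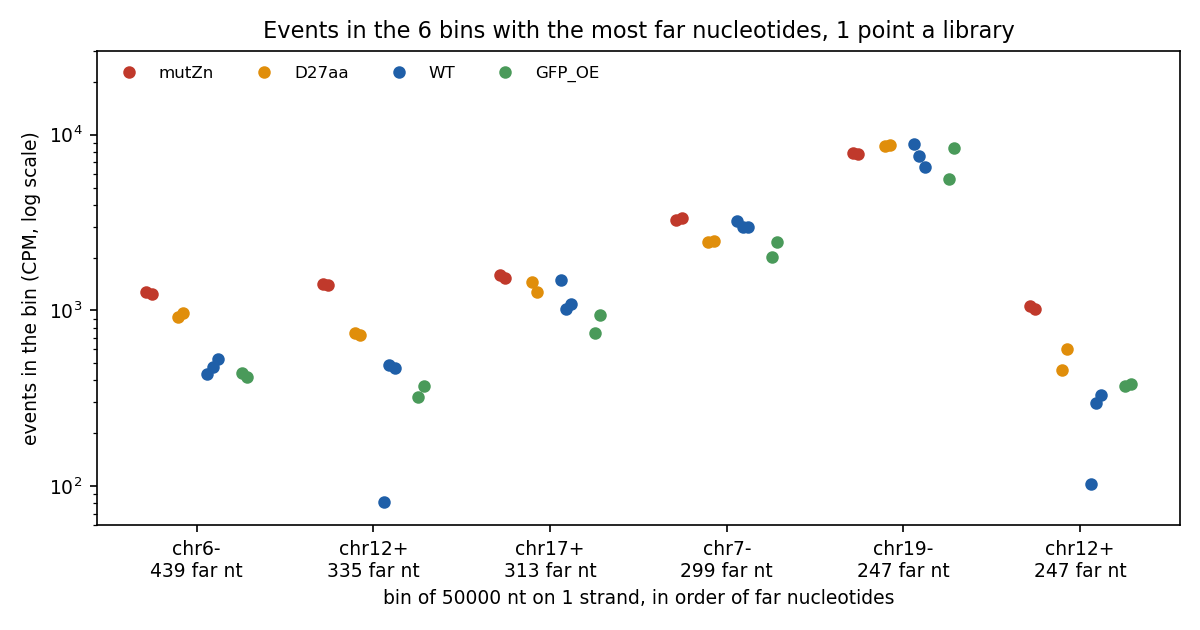
Events in the 6 bins of 50000 nt with the most far nucleotides (CPM, log scale), 1 point a library, for mutZn, D27aa, WT and GFP_OE from left to right in each bin. In the chromosome 6 bin and both chromosome 12 bins all mutZn points lie above all D27aa points and these above all WT points; in the chromosome 19 bin the groups lie together near 7793 CPM in mutZn and 7667 CPM in WT.

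Far nucleotides were found on every chromosome of the lists, and none off the placed chromosomes. Chromosome 11 held the most, 9048. As a share of the mutZn peak nucleotides of that score they ran from 18.6% on chromosome 17 to 30.5% on chromosomes 5 and 15 over the 19 autosomes, with a median of 25.6%. The X chromosome, with 3119, had 24.0%, the Y chromosome 54.7% (110 of 201) and the mitochondrial chromosome 7.40% (163 of 2203, all on the plus strand).

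Chromosomes 6 and 12 stood apart in the ratio of mutZn to WT. Summed over far nucleotides, this ratio of CPM within 30 nt was 2.69 on chromosome 12 and 2.42 on chromosome 6. It was between 1.17 (chromosome 17) and 2.06 (chromosome 15) on the other autosomes, 1.83 on X, 2.32 on Y and 0.905 on the mitochondrial chromosome. On chromosome 12, 74.8% of the far nucleotides lie on the plus strand, the strand of the 2 bins given above. All events of chromosome 12 together were also higher, at 39400 ± 102 CPM in mutZn, against 35013 ± 1203 CPM in WT, and so were those of chromosome 6, at 59105 ± 105 CPM in mutZn, against 54181 ± 762 CPM in WT (SD, n = 2 and 3). This was not particular to mutZn. On chromosome 12 D27aa 1 and D27aa 2 had 37145 and 36706 CPM, above every WT library and below both mutZn libraries. On chromosome 6 they had 60864.5 and 61846.7 CPM, above both mutZn libraries.

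**Figure D5:**
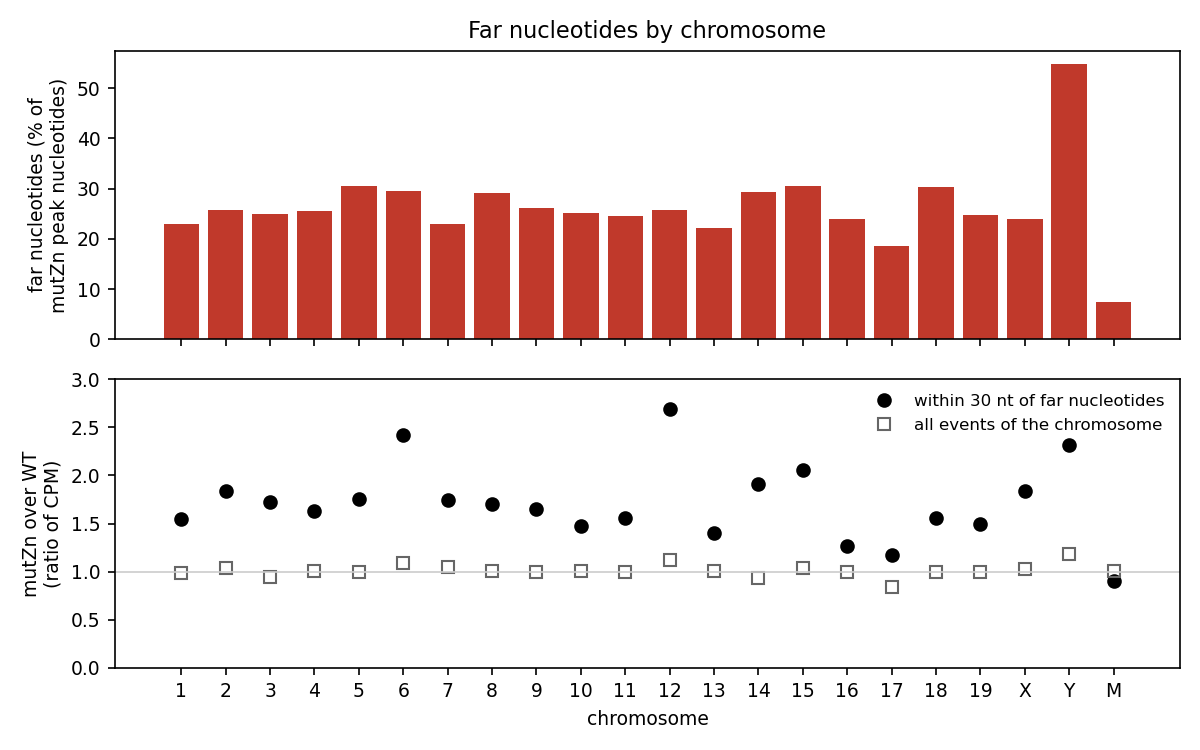
Top, far nucleotides as percent of the mutZn peak nucleotides with a score of at least 3, by chromosome; bottom, ratio of mutZn to WT CPM within 30 nt of far nucleotides (filled circles) and over all events of the chromosome (open squares). Autosomes hold 18.6% to 30.5%, Y 54.7% and the mitochondrial chromosome 7.40%, and the ratio near far nucleotides is highest on chromosome 12 (2.69) and chromosome 6 (2.42).

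The total signal of a chromosome and its share of far nucleotides were also set side by side. The ratio of mutZn to WT over all events ran from 0.841 (chromosome 17) to 1.13 (chromosome 12) among autosomes, and its Pearson correlation with the percent far was 0.40 and its Spearman correlation 0.21 over 19 autosomes, given as a description, since all points share the same libraries. Chromosomes 17 and 5 show the ends, with 18.6% far and a ratio of 0.841 on the first, and 30.5% far and a ratio of 0.999 on the second. The share of far nucleotides with no WT event ran from 7.98% on chromosome 11 to 15.4% on chromosome 15.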

How the data were processed

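Each library file as deposited by the authors lists crosslinked nucleotides with a signed score, the number of cDNAs on mm9 (annotation Ensembl 59, per the file headers), whose sign is the strand. The authors' peaks are positions passing 100 permutations within 15 nt at a false discovery rate of 0.05, per the file headers. CASAVA 1.4 was used per the submitters' processing notes, and the aligner is not given in the sources used here. Replicate numbers follow the titles. Those in the headers differ for some libraries.

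Events are absolute scores, and CPM is events per 1000000 events of a library. Windows reached 30 nt on each side of a nucleotide (61 nt). Ratios of group means are given for joined windows and bins, and for all events of a chromosome, and ratios of pooled events for distances, clusters and the far nucleotides of a chromosome. Clusters joined nucleotides at most 30 nt apart. Intervals are exact Poisson (95%) and cover counting error only, as does the floor of 3 events. The only tests are exact permutation tests over libraries of log2 CPM. Signed scores were not put into a count model. Python 3.11.15, numpy 2.4.6, pandas 2.3.3 and scipy 1.17.1 were used, and counting steps passed 140 of 140 checks on simulated data.

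Regions named are the 8 clusters with the largest summed score, the 5 with the most far nucleotides, the 6 with the largest summed score and no WT event, and the 6 fullest bins of 50000 nt. The rule, the far nucleotides and these lists were chosen with earlier results of these data known. Alternatives changed the score, the distances, the cluster gap, the libraries and the weight of a nucleotide.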

Additional observations from a re-analysis of the deposited data

How the results depend on the processing

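The minimum score set the size of the group. A minimum of 2 gave 250742 far nucleotides in 116817 clusters, 5 gave 15973 in 10353, and 10 gave 2133 in 1245. Requiring a score of 3 in 1 mutZn library alone, a choice made after seeing the data, gave 11644 to 36830 far nucleotides and 8878 to 24700 clusters. The other 4 alternatives for the number of nucleotides and 6 for the number of clusters stayed within 1.5 times.

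The share with no WT event (12.0%) was 5.00% at a minimum score of 5 and 1.31% at 10. It was 14.3% beyond 100 nt from a WT peak, 75.9% when only the nucleotide itself was searched and 36.1% within 5 nt. Leaving out 1 WT library gave 12.6% to 42.2%, the last without WT 4. It was 10.9% with an event in both mutZn libraries, and 10.2% when anti-SRSF7 libraries joined WT, 2 choices made after seeing the data. The share near a D27aa peak (1.53%) was 3.90% and 14.9% at minimum scores of 5 and 10, 1.04% beyond 100 nt, 0.299% at the nucleotide, 0.748% within 5 nt and 1.74% with an event in both mutZn libraries. The cause of these shifts was not tested.

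The ratio of mutZn to WT (1.68) was 1.39 with each crosslinked nucleotide counted once, and 1.62 to 1.75 under its 10 other alternatives. The ratio of D27aa to GFP_OE (1.22) was 1.06 to 1.39 under its 11 alternatives. With replicate number as a block, mutZn 3 over WT 3 gave 1.57 and mutZn 4 over WT 4 gave 1.72, with a geometric mean of 1.64. This choice was made after seeing the data, and only the number is known to be shared. For D27aa and GFP_OE no paired analysis was possible because they share no number.

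Depth limits the absence of WT events, since 12882 far nucleotides have fewer than 11 mutZn events. With 2 or 3 libraries a group and 1 for each control, the exact permutation test used here could not pass a threshold of 0.05. Without RNA levels or an mm9 annotation, no gene or transcript region is assigned.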

Other observations

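The far nucleotides most remote from WT peaks were looked at apart, a choice made after their values were seen. The 558 that lie more than 100000 nt from any WT peak nucleotide on their strand occupy 435 bins. Within 30 nt of them mutZn 3 and mutZn 4 had 189 and 213 CPM, D27aa 1 and D27aa 2 had 82.3 and 152 CPM, and WT 2, WT 3 and WT 4 had 49.6, 63.7 and 63.2 CPM. Other libraries reached or passed the mutZn level on few events, with 299 CPM in endo_OE 5 (25 events), 197 CPM in GFP_OE 3 (25), 562 CPM in mono IP 2 (18) and 654 CPM in poly IP 2 (12). The no-antibody and IgG libraries did so on 1 to 5 events each. mutZn no-UV had 5 events, D27aa no-UV 2 and WT no-UV 7.

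The fullest of these bins holds 15 far nucleotides at chr9:31586663-31586705 on the plus strand, 143448 nt from the nearest WT peak. It had 73 and 20 events in mutZn and 0, 0 and 3 in WT, and no other of the 25 libraries had an event there. On the minus strand of chromosome 6, 2 stretches hold 14 (chr6:144204341-144244214) and 9 (chr6:144308672-144333735). Over the first, counting all events, mutZn had 507 and 295, D27aa 10 and 8, and WT 3, 2 and 7. Over the second, mutZn had 431 and 218 events, D27aa 6 and 10, and WT 2, 3 and 3. The no-UV libraries had 1 event in mutZn, 1 in D27aa and 1 in WT over the first, and 5, 0 and 1 over the second. Over the first and second, endo_WT had 6 and 1 events, GFP_OE 4 had 1 and 2, and endo_OE 4 had 1 and 0. All these are raw events, not levels. mutZn 3 holds 11782376 events in all, against 376870 in D27aa 1 and 66690 in mutZn no-UV. Low counts in the shallower libraries are therefore not read as absence.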
